A study of Danio rerio with 4 samples.

Results

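The C/ebp transcription factors of zebrafish were examined in endothelial cells of the caudal hematopoietic tissue, the vascular bed of the larval tail where blood stem cells settle and expand. The members are the 5 genes cebpa, cebpb, cebpd, cebpg and cebp1, found by matching the Ensembl identifiers of the deposited tables to gene symbols, out of 28346 genes listed. They were chosen by their levels and differences between these same libraries, so their own values are a description, without a test. Wild type, untreated larvae at 5 days post fertilisation carried GFP under the kdrl promoter, active in endothelium, and DsRed under the lyve1b promoter, active in veins and lymphatics. Cells sorted with both colours are called vein here, those with GFP but no DsRed non-vein, and each group has 2 mRNA libraries. The labels leave unstated if the libraries of a group derive from different larvae, so p-values speak only of the spread among these samples, possibly a technical one.

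C/ebp proteins are basic leucine zipper (bZIP) factors, which bind DNA as dimers with each other or with related factors. In mammals C/EBPα directs blood progenitors towards granulocytes and monocytes and restrains cell division, while C/EBPβ and C/EBPδ are induced by cytokines, inflammation and stress. C/EBPγ lacks a typical activation domain and acts as a partner in dimers, and cebp1 is a zebrafish gene expressed in myeloid cells. In bulk libraries, fewer cells of a type and less RNA per cell cannot be told apart.

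Estimated counts summed to 15672159 and 16409447 in vein, and to 18047152 and 18862102 in non-vein. Levels are in CPM, counts scaled to a common library size, here with TMM. A count of 0 leaves room for at most 0.152 to 0.196 CPM, depending on the library and for counting error only. The gene behind the vein gate, lyve1b, stood at 1953 and 1636 CPM in vein, against 53.7 and 217 CPM in non-vein. Non-vein library 2 held more lyve1b than non-vein library 1. Of the members higher in vein, cebpd and cebpg had the same order within non-vein, and cebpb the reverse. Of those lower in vein, cebpa was lower in non-vein library 2 and cebp1 was higher there. kdrl, the gene behind the GFP shared by both groups, stood at 10504 and 7933 CPM in vein and at 1998 and 2956 CPM in non-vein libraries. Of 15953 genes tested, 1826 differed (11.4%; adjusted p under 0.05 in edgeR's quasi-likelihood test), 656 of them higher in vein (4.11%) and 1170 lower (7.33%).

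All 5 C/ebp genes passed the filter on low counts, and in none of them did the groups overlap, which held for 62.1% of all genes tested. cebpb, cebpd and cebpg were higher in both vein libraries than in either non-vein library, as were 29.0% of all genes tested. cebpa and cebp1 were lower in both, as were 33.1% of all genes tested. Levels ran from 8589 CPM for cebpb in vein library 2 to no count for cebp1 in the same library.

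**Figure D1:**
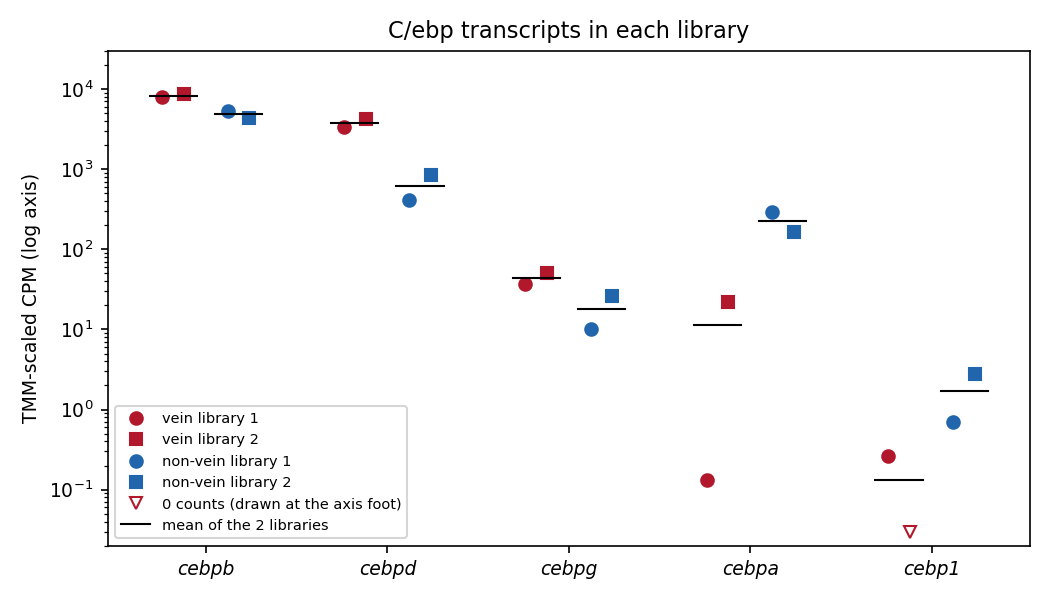
TMM-scaled CPM (log axis) of each C/ebp gene in the 2 vein libraries (red) and the 2 non-vein libraries (blue), with the mean of each pair as a line. The 3 genes at the left are higher in both vein libraries, cebpa and cebp1 are lower, and cebp1 had no count in vein library 2 (open triangle at the axis foot), and cebpa differs between vein library 1 (0.131 CPM) and vein library 2 (22.3 CPM).

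cebpb was the most abundant member in every library. It stood at 7965 and 8589 CPM in vein, against 5240 and 4402 CPM in non-vein. Both groups were tight, with a ratio between libraries of 1.08 in vein and 1.19 in non-vein. The mean was 8277 ± 441 CPM in vein and 4821 ± 593 CPM in non-vein (SD, n = 2 each), a 1.72-fold difference (log2 0.78, SE 0.18). Among all genes tested 30.1% had a higher log2 fold, so cebpb stood out by its level more than by its difference. Its log2 fold was 0.65 with non-vein library 2 left out and 0.91 with non-vein library 1 left out.

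By FPKM, which scales fragments to transcript length, cebpb reached 5133 and 5414 in the vein libraries and 3525 and 3029 in the non-vein libraries. It ranked 13th and 12th among all genes in vein libraries 1 and 2, and 24th and 33rd in non-vein libraries 1 and 2. Its neighbours in that order were a JUNB gene (ENSDARG00000074378) just above and the mitochondrial gene MT-CO1 just below in both vein libraries. In the non-vein libraries ribosomal protein genes were neighbours, RPS2 in library 1 and RPL36 and RPL23A in library 2. This transcription factor gene thus lay at levels near those of genes for the ribosome and the respiratory chain.

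cebpd showed the largest difference of the 3 members that were higher in vein. It stood at 3312 and 4227 CPM in vein, against 409 and 837 CPM in non-vein. The lowest vein library lay well above the highest non-vein library, and the spread was wider within non-vein, where the libraries differed 2.05-fold against 1.28-fold within vein. The mean was 3770 ± 647 CPM in vein and 623 ± 302 CPM in non-vein (SD, n = 2 each), a 6.05-fold difference (log2 2.60, SE 0.38). Of all genes tested 5.52% had a higher log2 fold. The higher non-vein value belongs to the library with more lyve1b, and the part of lyve1b-positive cells in it was not tested. Leaving out that library gave a log2 fold of 3.197 for cebpd, and leaving out the other non-vein library gave 2.17.

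In FPKM, cebpd reached 2568 and 3206 in the vein libraries, ranks 30 and 26, against 331 and 693 in the non-vein libraries, ranks 453 and 214. Within 2 places of it in a vein library stood actb1, GPR182, AQP1 (ENSDARG00000023713) and tmsb4x, of which actb1 and tmsb4x encode an actin and an actin-binding peptide. By FPKM it thus stood among the 30 most abundant genes in vein, below cebpb, and much further down in non-vein. By CPM it ranked 34th and 27th in vein libraries 1 and 2.

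**Figure D2:**
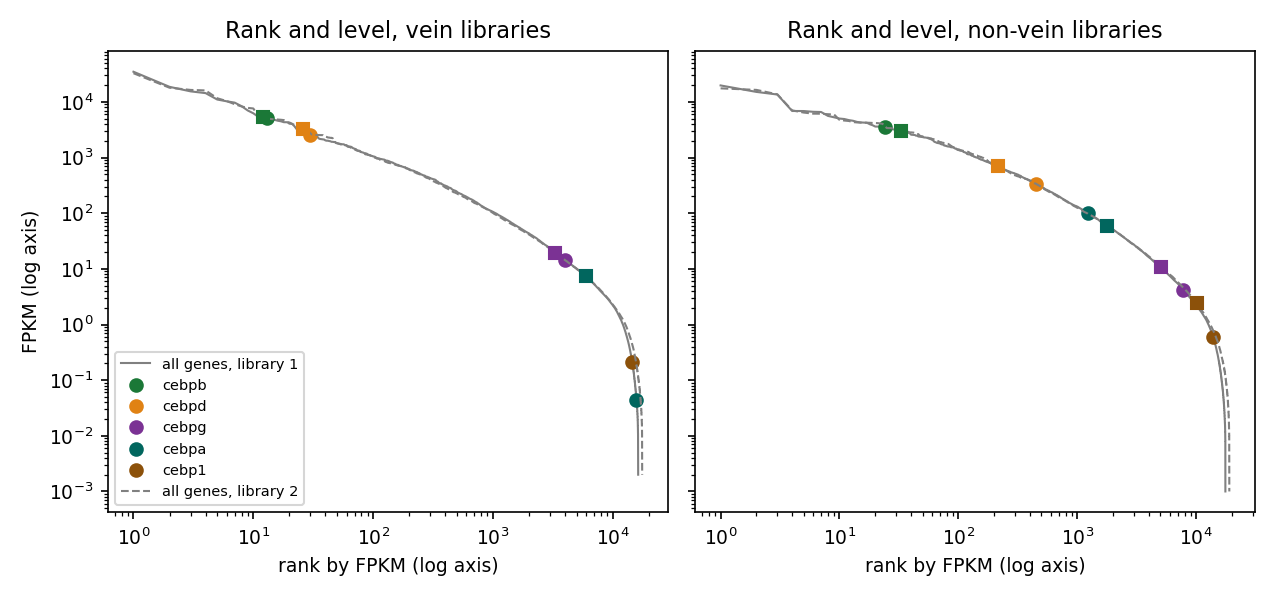
FPKM against rank (both log axes) of all genes with FPKM above 0 in the vein libraries (left) and the non-vein libraries (right), library 1 as circles and a solid line, library 2 as squares and a dashed line. cebpb stays near the top in all 4 libraries, cebpd stands at ranks 30 and 26 in vein and 453 and 214 in non-vein, and cebpa is far down the order in vein; cebp1 was listed at 0 in vein library 2 and is not drawn there.

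The make-up of the C/ebp pool differed between the groups. The summed FPKM of the 5 genes was 7716 and 8646 in the vein libraries and 3963 and 3795 in the non-vein libraries. They took 1.11% and 1.23% of all counts in vein and 0.607% and 0.567% in non-vein. The pool was larger in vein, and cebpd made up more of it. cebpb held 66.5% and 62.6% of the pool in the vein libraries, against 88.9% and 79.8% in the non-vein libraries. cebpd held 33.3% and 37.1% in vein, against 8.36% and 18.3% in non-vein. One cebpd transcript was thus present for each 2.0 and 1.69 of cebpb per unit length in vein libraries 1 and 2, and for each 10.6 and 4.37 in non-vein libraries 1 and 2. cebpa held at most 0.0854% in vein, against 2.58% and 1.55% in non-vein, and cebpg never exceeded 0.289%. The shares rest on the values that chose the members and have no test.

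**Figure D3:**
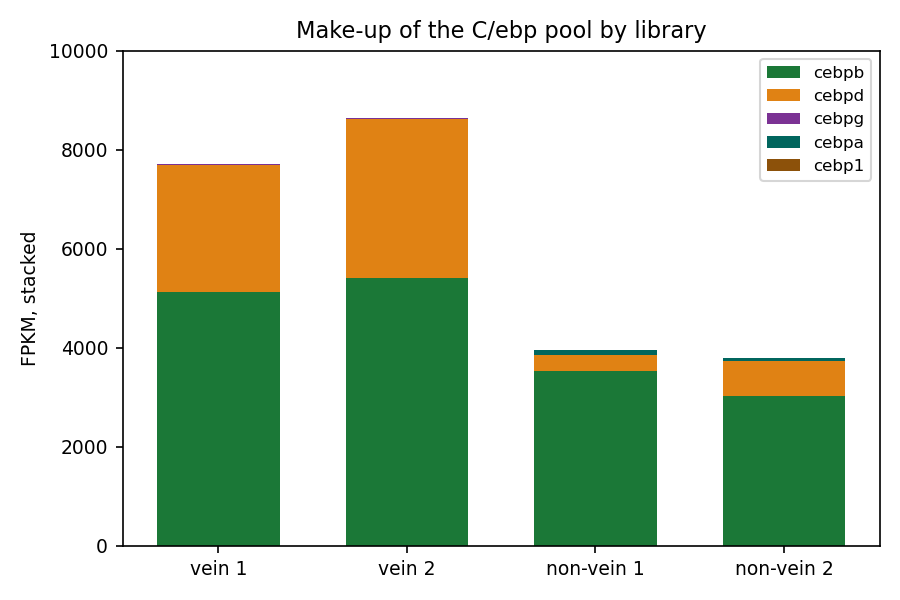
Stacked FPKM of the 5 C/ebp genes in each library, vein at the left. The columns reach 7716 and 8646 FPKM in vein and 3963 and 3795 FPKM in non-vein, and the cebpd block is the part that differs most; cebpg and cebp1 are too low to be seen.

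cebpg, the partner without a typical activation domain, was expressed at a moderate level. It stood at 36.5 and 50.1 CPM in vein, against 10.2 and 25.8 CPM in non-vein. The groups did not overlap, but the gap from the lower vein to the higher non-vein library was smaller than the 2.52-fold range within non-vein. The mean was 43.3 ± 9.59 CPM in vein and 17.99 ± 10.99 CPM in non-vein (SD, n = 2 each), a 2.41-fold difference (log2 1.27, SE 0.53). Of all genes tested 20.3% had a higher log2 fold. As with cebpd, the higher non-vein value came from library 2, the one with more lyve1b, and its part was not tested. The log2 fold was 2.08 with that library left out and 0.75 with the other non-vein library left out. By FPKM it ranked 3987th and 3310th in vein and 7760th and 5061st in non-vein.

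cebpa ran the other way. It stood at 0.131 and 22.3 CPM in vein, against 288 and 163 CPM in non-vein. Vein library 1 held 2 counts of cebpa and vein library 2 held 349, so the vein libraries were 170-fold apart while the non-vein libraries differed 1.77-fold. The mean was 11.2 ± 15.6 CPM in vein and 226 ± 88.8 CPM in non-vein (SD, n = 2 each), a 20.1-fold lower level in vein (log2 -4.33, SE 1.63). Of all genes tested 5.32% had a lower log2 fold. Against vein library 2 alone the non-vein libraries pooled were 10.04-fold higher (exact 95% binomial interval 9.02 to 11.2), and against vein library 1 alone 1711-fold (474 to 14132), intervals that cover counting error only. The direction was the same with either vein library, but the size was set by which one was used. The log2 fold was -10.68 without vein library 2, -3.34 without vein library 1, -5.76 with the replicate number as a block, -6.79 with limma-voom and -6.23 on log2(FPKM + 0.1).

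In FPKM cebpa stood at 0.044 and 7.39 in the vein libraries, ranks 15773 and 5951, and at 102 and 59.0 in the non-vein libraries, ranks 1226 and 1795. cebpa and cebpg lie next to each other in the RefSeq gene table (assembly GRCz12tu, another build than that of the files). These neighbours went opposite ways: per unit length cebpg exceeded cebpa 2.64-fold in vein library 2, while cebpa exceeded cebpg 24.0-fold and 5.38-fold in non-vein libraries 1 and 2. In that table a long non-coding RNA gene overlaps both cebpa and cebpg, and another overlaps cebpb. The sources used here do not state if counting was strand-specific, so reads of such partners cannot be told apart from those of the C/ebp genes.

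Genes of blood progenitors and leukocytes were mostly lower in vein, as cebpa was, and those of other blood lineages were not all so. Of 19 tested genes of blood progenitors and leukocytes, cebpa left out, 12 fell in vein and no other passed the test (median log2 -3.95, against 0.01 over all genes tested). Both vein libraries lay below both non-vein libraries in 17 of the 19, against 33.1% of all genes tested. The summed level of the list was 740 and 1087 CPM in the vein libraries and 6200 and 4895 CPM in non-vein. The vein libraries thus lay far closer in this sum than in cebpa, where they were 170-fold apart. Of the 19, 6 were at 0 in vein library 1, 1 in vein library 2 and 0 in either non-vein library. IKZF1, the lymphoid factor Ikaros, stood at 8.29 and 7.72 CPM in vein and at 140 and 108 CPM in non-vein libraries (log2 -3.95, edgeR, adjusted p = 0.0104). rac2, a GTPase of leukocyte migration, and CXCR4 (ENSDARG00000057633), a receptor for CXCL12, fell as well (log2 -3.14 and -3.77, edgeR, adjusted p = 0.0124 and 0.0120). CXCR4 was matched without its paralog letter, so the paralog is not settled by the name. The same CXCR4 row is also counted among the arterial endothelial genes. The level of cebpa was 0.0176% and 2.05% of the list's summed CPM in vein libraries 1 and 2, and 4.65% and 3.33% in non-vein libraries 1 and 2. Erythroid markers lay on the other side, with a median log2 of 1.72 over 13 tested, 12 of them above 0. The 2 called higher in vein were tspo and blvrb, and no globin gene of the list was called. Both vein libraries lay above both non-vein libraries in 6 of the 13, against 29.0% of all genes tested. Thrombocyte markers lay on the side of cebpa, with a median log2 of -2.31 over 8 tested. Of these 7 were below 0, with 2 called lower and 1 higher in vein. Relative to the progenitor and leukocyte genes too, vein library 1 had the least cebpa, and the part of blood cells in the cebpa result was not tested.

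Granulocyte and macrophage genes gave a mixed picture beside cebpa. lyz, the lysozyme gene of neutrophils and other myeloid cells, stood at 82.8 and 563 CPM in vein, against 666 and 633 CPM in non-vein. As with cebpa, vein library 1 was the low one, while vein library 2 was close to the non-vein libraries. Of 12 tested neutrophil markers 1, LECT2 (ENSDARG00000090889), fell and no other passed the test (median log2 0.10). Over all genes tested 7.33% were called lower. The summed level of the neutrophil markers was 369 and 1086 CPM in vein and 1102 and 1077 CPM in non-vein libraries. Another row matched by the same name, LECT2 (ENSDARG00000033227), was not called and had a log2 fold of 1.01. It stood at 15.2 and 65.2 CPM in vein and at 21.7 and 18.1 CPM in non-vein. Of 9 tested macrophage markers 2 fell and no other passed the test (median log2 -1.07). csf1rb, a receptor for colony stimulating factor 1, stood at 0.0653 and 1.79 CPM in vein and 72.5 and 60.0 CPM in non-vein libraries (edgeR, adjusted p = 0.0299), while cd74b, for the MHC class II invariant chain, had no count in vein and 15.6 and 72.9 CPM in non-vein. It was at least 467-fold lower in vein, with 3 counts over the group as the floor, and at least 162-fold or 753-fold lower against non-vein library 1 or 2 alone. Limma-voom did not call cd74b (highest adjusted p over the alternatives 0.116). Without vein library 2 the changed genes were 3 of the neutrophil and 4 of the macrophage list, and without non-vein library 1 they were 2 of the neutrophil list. DESeq2 called 3 of the neutrophil list (1 higher, 2 lower) and 5 of the macrophage list (1 higher, 4 lower). The macrophage markers csf1ra and c1qa had 0 counts in all 4 libraries, and the summed list stood at 175 and 139 CPM in vein and 128 and 205 CPM in non-vein libraries.

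cebp1 was the rarest member. It had 4 and 0 counts in the vein libraries and 13 and 54 counts in the non-vein libraries, or 0.261 and 0 CPM in vein against 0.706 and 2.74 CPM in non-vein. The non-vein counts were 13.6-fold higher than the vein counts over the groups (exact 95% binomial interval 5.08 to 51.5, counting error only). The fitted log2 fold was -3.66 (SE 2.01), and within non-vein the libraries differed 3.88-fold. Of all genes tested 6.54% had a lower log2 fold. By FPKM cebp1 ranked 14509th in vein library 1 and 13857th and 10063rd in the non-vein libraries, and it was listed at 0 in vein library 2. With so few reads, its size is not fixed by these data: the log2 fold was -2.38 with non-vein library 2 left out, -4.32 with its partner left out, -2.70 with vein library 2 left out and -1.09 on log2(FPKM + 1) without a filter. Without vein library 1 the vein group has no count left, and the fitted value, -7.96, is then no bound.

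**Figure D4:**
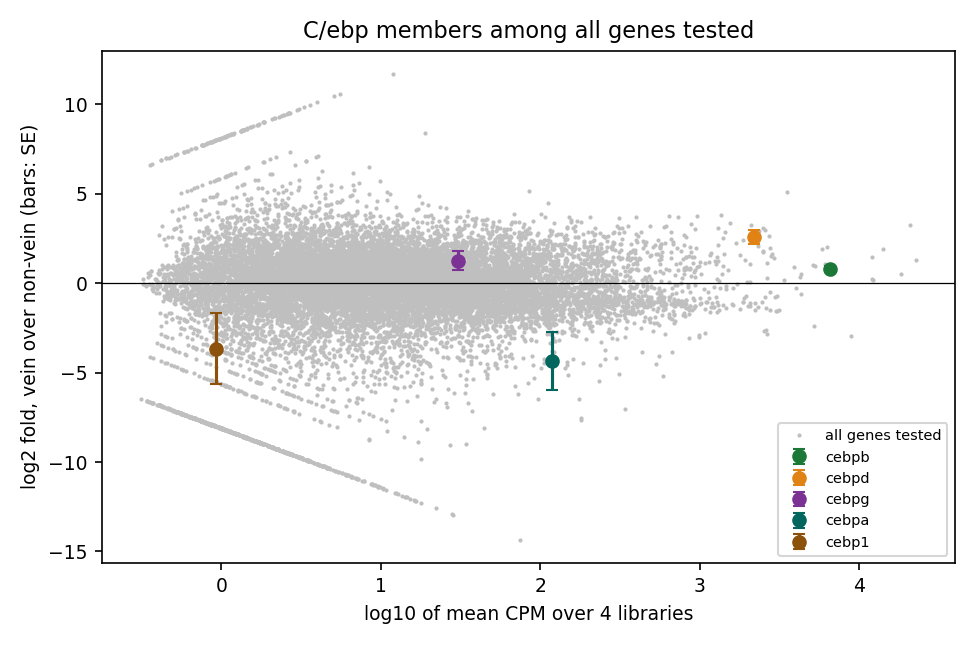
Log2 fold of vein over non-vein against the log10 mean CPM over the 4 libraries for all 15953 genes tested (grey) and the 5 C/ebp genes (coloured, bars are SE). cebpb (0.78) and cebpd (2.60) lie at the far right among the most abundant genes, and the bars of cebpa (SE 1.63) and cebp1 (SE 2.01) are the widest of the 5; the outermost slanted lines of grey points are genes with no count in one group, whose fitted folds depend on the prior count.

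For each member the 3 genes with the most similar profile were found among 7469 named genes of at least 10 CPM on average, by the root mean square difference of centred log2(CPM + 1) over the 4 libraries. Near to cebpb were si:ch211-196l7.4 and YAE1, at differences of 0.00936 and 0.0335 log2 units. Those nearest to cebpd were DIO1, an iodothyronine deiodinase, mfng, a Fringe glycosyltransferase that modifies Notch, and GCHFR, a regulator of GTP cyclohydrolase, at 0.0616, 0.0647 and 0.0793. mfng stood at 255 and 339 CPM in vein and at 34.4 and 64.0 CPM in non-vein libraries. cebpg was nearest to WIPF2 (ENSDARG00000045298) and RELCH, at 0.0230 and 0.0438. cebpa had no close match: NAB1 (ENSDARG00000042940), si:ch1073-429i10.1 and cdca8, a mitotic gene, were nearest at 0.405, 0.543 and 0.695, each with 0 counts in vein library 1. For cebp1 the values were 0.0981 for gkup, 0.163 for kdm6bb, a histone demethylase gene, and 0.171 for CTU1. At the low CPM of cebp1 the added 1 flattens its profile, so these differences do not stand for like folds. The log2 folds of gkup, kdm6bb and CTU1 were -1.17, -1.54 and -1.59, against -3.66 for cebp1. With 4 libraries such likeness is a description only.

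C/ebp factors pair with other bZIP proteins, and that class was examined next. With 60 other bZIP genes of the lists, the family formed a set of 65. cebpb ranked 4th of these by FPKM in both vein libraries and 3rd in both non-vein libraries. JUNB (ENSDARG00000104773) and FOS were above it in all 4. cebpd ranked 6th in both vein libraries, and 9th and 6th in non-vein libraries 1 and 2, while cebpa ranked 58th and 37th in vein and 11th and 20th in non-vein. The C/ebp genes took 16.9% and 17.2% of the summed bZIP FPKM in vein and 21.2% and 19.1% in non-vein, so their higher summed level in vein came with a lower share of the class. How reads were divided between close paralogs such as the JUNB genes is uncertain.

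Of the partners and close relatives 1 of 15 tested passed edgeR's test and rose in vein, where 4.11% of all genes tested were called higher. So small a count does not set the list apart from all genes. The median log2 was 1.55 over the list, against 0.01 over all genes tested. The called gene was DDIT3, or CHOP, a stress-induced partner that pairs with C/EBP proteins in mammals. It stood at 264 and 382 CPM in vein, against 83.2 and 116 CPM in non-vein (log2 1.70, SE 0.30, edgeR, adjusted p = 0.0266). Its adjusted p was 0.0550 at the highest over the 14 alternatives, and the call was lost without vein library 2 and on log2(FPKM + 1) without a filter. The list gave 0 calls without vein library 2, 1 without vein library 1, and 3 and 4 with non-vein library 1 or 2 left out. DESeq2 called 7 of the list, 6 higher and 1 lower, and limma-voom called 4. Over all genes DESeq2 called 4079 of 21802 and limma-voom 2534 of 15953.

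Among the other bZIP genes 9 of 38 tested rose and 2 fell in vein (median log2 0.85). JUNB (ENSDARG00000104773), an AP-1 subunit, stood at 20688 and 23655 CPM in vein and at 6315 and 5694 CPM in non-vein libraries (log2 1.88, SE 0.17, edgeR, adjusted p = 0.0124). FOS, its dimer partner, rose by 1.47 on the log2 scale (SE 0.17), and maff and mafbb, of the Maf group, by 1.75 and 3.69 (edgeR, adjusted p = 0.0149, 0.0183 and 0.0144). NFE2, an erythroid and megakaryocytic bZIP factor, fell, with 4.51 and 3.12 CPM in vein against 112 and 94.2 CPM in non-vein libraries (log2 -4.75, edgeR, adjusted p = 0.0104). The other gene that fell was creb1a. DESeq2 called 18 of the list, 15 higher and 3 lower.

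**Figure D5:**
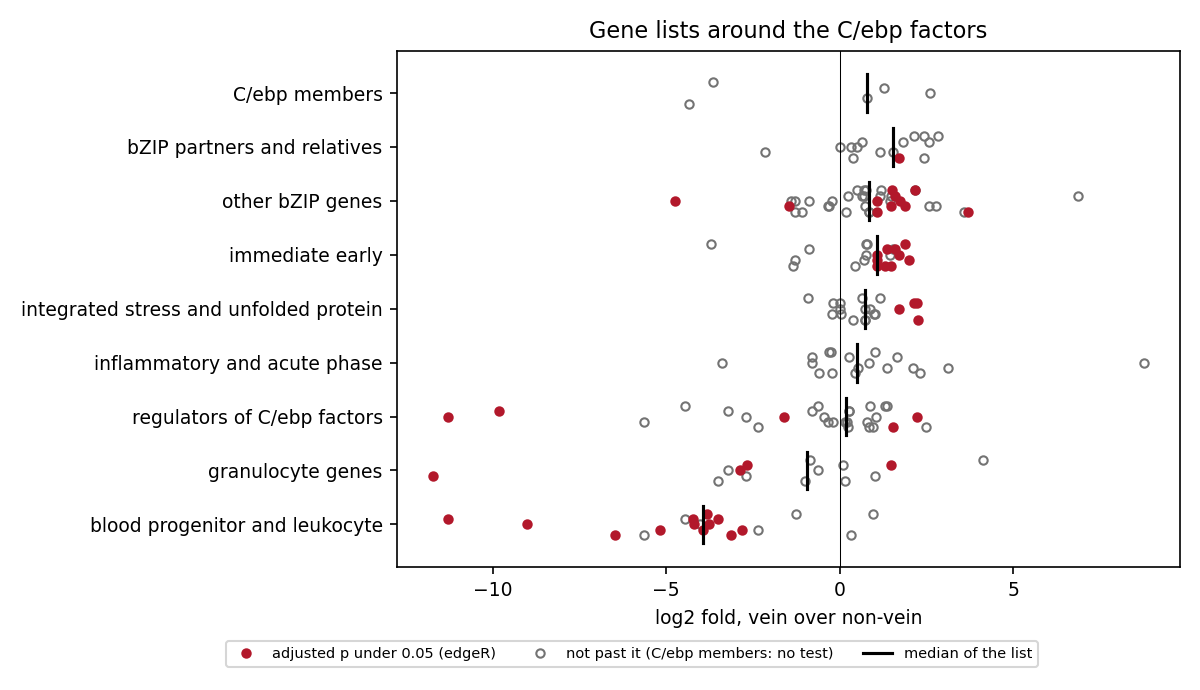
Log2 fold of vein over non-vein for the tested genes of the C/ebp family and of 8 lists around it, 1 point a gene, with the list median as a bar; filled points passed edgeR's test and C/ebp members carry no test. Medians lie above 0 for the bZIP, immediate early, stress and inflammatory lists (1.08 for immediate early genes) and below 0 for granulocyte (-0.93) and blood genes (-3.95); genes with no count in one group stand at fitted values that are no bound.

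Immediate early genes, a class induced within minutes by many stimuli, cell dissociation among them, were mostly higher in vein, as were cebpb and cebpd. Of 21 tested, 10 rose in vein and no other passed the test (median log2 1.08). They took 6.60% and 7.08% of counts in vein and 2.39% and 2.71% in non-vein libraries. FOS and the JUNB gene above are among the 10, as are the other JUNB row (ENSDARG00000074378), JUN and FOSL1. All of these also count among the other bZIP genes that rose, so the 2 lists are not separate observations. ier2a stood at 10078 and 10212 CPM in vein and at 2213 and 2829 CPM in non-vein libraries (log2 2.01, edgeR, adjusted p = 0.0141). BTG2 and klf2b rose as well (log2 1.31 and 1.72, edgeR, adjusted p = 0.0207 and 0.0165). The part of these stimuli in the levels of cebpb and cebpd was not tested.

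Stress genes that share regulators with the C/ebp factors moved in part. Of 19 tested integrated stress and unfolded protein response genes 4 rose in vein and no other passed edgeR's test (median log2 0.73). DESeq2 and limma-voom called 7 each, those of DESeq2 all higher. Besides DDIT3, edgeR called TRIB3, a pseudokinase, HERPUD1, of endoplasmic reticulum protein degradation, and ppp1r15a, a phosphatase subunit that restores translation. TRIB3, HERPUD1 and ppp1r15a rose by 2.24, 2.26 and 2.13 on the log2 scale (edgeR, adjusted p = 0.0189, 0.0266 and 0.0358). The call of HERPUD1 was lost without non-vein library 1 and that of ppp1r15a without vein library 1 (highest adjusted p over the alternatives 0.0619 and 0.0688). Both were also lost on log2(FPKM + 1) without a filter.

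Of 28 tested regulators and cofactors of C/ebp factors, 2 rose and 3 fell in vein (median log2 0.18). Over all genes tested 4.11% were called higher and 7.33% lower. TRIB3 and JAK1, a kinase of cytokine receptors, rose (log2 2.24 and 1.54, edgeR, adjusted p = 0.0189 and 0.0207). gfi1aa and GFI1, zinc finger repressors of blood development, fell: gfi1aa had no count in vein and was at least 189-fold lower, and GFI1 had 1 count over the vein and 1341 over the non-vein libraries, a scaled ratio of 1091 (exact 95% binomial interval 196 to 43135, counting error only). The chromatin remodeller gene SMARCA4 (ENSDARG00000077226) fell by 1.60 on the log2 scale (edgeR, adjusted p = 0.0288), a call lost without vein library 2 and without non-vein library 1, and the call of JAK1 was lost without vein library 1, as both were on log2(FPKM + 1) without a filter (highest adjusted p over the alternatives 0.0681 and 0.0674). The list gave 8 calls without vein library 2, 12 with DESeq2 (5 higher, 7 lower) and 9 with limma-voom.

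Among 14 tested granulocyte genes that C/ebp factors act on, 1 rose and 3 fell (median log2 -0.93), against 4.11% and 7.33% over all genes tested. srgn, a granule proteoglycan also made by endothelium, stood at 1893 and 1892 CPM in vein and at 572 and 792 CPM in non-vein libraries (log2 1.47, edgeR, adjusted p = 0.0200). Among those that fell were cyba, part of the phagocyte oxidase, and LECT2 (ENSDARG00000090889), a leukocyte chemotactic factor gene. cyba fell by 2.67 and this LECT2 row by 2.86 on the log2 scale (edgeR, adjusted p = 0.0274 and 0.0144). The other LECT2 row, ENSDARG00000033227, was not called (log2 1.01). The list gave 7 calls without vein library 2 and 7 with DESeq2 (2 higher, 5 lower).

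Inflammatory and acute phase genes, a class that C/EBPβ and C/EBPδ act on in mammals, gave 0 calls among 18 tested with edgeR, where 3 had an unadjusted p under 0.05, all higher in vein. DESeq2 called 3 and limma-voom 2 of the list, and edgeR called 4 with non-vein library 2 left out, 1 with either vein library left out and 0 with non-vein library 1 left out. Its most abundant genes were SOCS3 (ENSDARG00000025428), a feedback inhibitor of cytokine signalling, and nfkbiab, an inhibitor of NF-κB. SOCS3 stood at 993 and 1261 CPM in vein and 288 and 588 CPM in non-vein libraries (log2 1.36, edgeR, adjusted p = 0.0721), and passed in 6 of 14 alternatives (adjusted p 0.00256 to 0.139). nfkbiab stood at 1051 and 1238 CPM in vein and 1268 and 1383 CPM in non-vein libraries (log2 -0.21, edgeR, adjusted p = 0.530). il6 had 0 counts in both vein libraries, against 3 and 16 counts in non-vein.

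Among adipogenic and lipid genes most calls of DESeq2 were lower, 4 against 2 higher, and limma-voom called 2. With edgeR, where 4.11% of all genes tested were called higher, 1 of 11 rose in vein and no other passed the test (median log2 -0.30). It was fabp4a, a fatty acid binding protein gene, at 7615 and 6419 CPM in vein and 3320 and 3965 CPM in non-vein libraries (log2 0.95, edgeR, adjusted p = 0.0361), with the call lost without vein library 1, with the replicate block and on log2(FPKM + 1) without a filter (highest adjusted p over the alternatives 0.126). The list gave 0 calls without vein library 1 and 2 without any 1 of the other libraries.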

How the data were processed

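RNA from sorted vein and non-vein endothelial cells of the caudal hematopoietic tissue was measured in 4 libraries, 2 a group. Tools named by the submitters' processing notes, without roles, are RSEM, HISAT2, StringTie 1.3.1, Bowtie2 2.2.8, fastp 0.18.0 and DESeq2, with the build GRCz11. The authors deposited estimated counts per gene as whole numbers, although their columns are named FPKM per the file headers, and a table of FPKM. Counts were used as deposited, without further rounding. After filterByExpr (a minimum of 10 counts) and TMM scaling, 15953 genes entered the quasi-likelihood test of edgeR 4.0.16 in R 4.3.3 (legacy method, group as the only term), adjusted by Benjamini-Hochberg and called under 0.05. Each SE was derived from the log2 fold and its F statistic. Alternatives used DESeq2 1.42.0, limma 3.58.1, other scalings, filters and pseudocounts, a replicate block, and each library left out. The C/ebp members and the lists were chosen with earlier results of these data known.

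Of 375 list symbols 349 matched the name table, and an unmatched paralog letter was dropped where at most 3 identifiers share the name. Named genes are the members, the 3 most alike for each, and up to 5 called genes a list (3 for markers) with the smallest adjusted p, or 2 genes of highest FPKM where a list had no call, with lyve1b and kdrl. lyz, csf1ra, c1qa, il6, creb1a, dll4, CDKN1B and RGS5 were named after their values were seen. A few genes named by it are left out of the text. Protein and promoter sequences were not used here.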

Additional observations from a re-analysis of the deposited data

How the results depend on the processing

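The direction of all 5 C/ebp genes held under every one of the 14 alternatives that gave a value (cebp1 did not pass the filter of 50 counts or a mean FPKM of 1). As the groups overlapped in none of them, these alternatives could hardly reverse a direction, so the agreement is no separate support. Beyond the spread of the replicates moved cebp1 on log2(FPKM + 1) without a filter (log2 -1.09). cebp1 also did so without vein library 1 (-7.96) and without non-vein library 2 (-2.38). cebpa did so only without vein library 2 (-10.68), and lay at -4.69 to -3.34 with any other library left out. For cebpa that spread was as wide as 3.70 log2 units, so a value of -6.79 with limma-voom counted as unmoved. The number of changed genes, 1826, was 4079 with DESeq2, 2845 without a filter, 3300 on log2(FPKM + 1) over genes averaging 1 FPKM or more, 1170 with the replicate block, and 1084 (without non-vein library 1) to 1903 with a library left out, where the lone library of a group is assumed to vary like the other group's. Of the list genes 93 changed, against 150 with DESeq2 and 81 to 115 with a library left out. The median log2 fold of all genes moved by -0.15 on log2(FPKM + 0.1), -0.10 on log2(FPKM + 1) with the same filter, -0.14 and -0.29 without vein library 1 or 2, and 0.11 without non-vein library 2. Ranking by CPM in place of FPKM gave mean ranks of 10 in vein and 13 in non-vein for cebpb, 790 in non-vein for cebpa and 3018 in vein for cebpg, and mean shares of the family's CPM of 68.5% for cebpb, 31.0% for cebpd and 0.356% for cebpg in vein, and 3.92% for cebpa in non-vein. The replicate numbers are shared by the groups, but the deviations of same-numbered libraries correlated across genes at 0.0407, and nothing in the labels pairs them. Depth limits cebp1, with 71 counts over 4 libraries, and cebpa in vein library 1. The cause of these differences was not tested.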

Other observations

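Markers of the sorted cells and of others they could hold gave the setting for the C/ebp values. Of 14 tested vein and lymphatic genes 8 rose in vein and no other passed the test (median log2 2.60). lyve1b, the gene behind the vein gate, is among the 8, so its call is no separate result. stab2, a scavenger receptor, stood at 1312 and 1074 CPM in vein and 55.0 and 123 CPM in non-vein libraries (edgeR, adjusted p = 0.0151). Pan-endothelial genes rose in 9 of 16 (median log2 1.39), SOX7, etsrp and EGFL7 among them, and no other passed the test. The 9 include kdrl, the gene behind the GFP of the sort. Arterial genes split, with 1 of 18 higher and 7 lower in vein (median log2 -2.59). HEY2, a Notch target of arteries, stood at 0.0653 and 0.255 CPM in vein and 43.6 and 27.9 CPM in non-vein libraries. The gene that rose was dll4, a Notch ligand. Of 28 tested cell cycle genes 19 fell and 1 rose, CDKN1B (ENSDARG00000054271), an inhibitor of the cycle (median log2 -2.82), with CDK1, the kinase of mitotic entry, at 18.87 and 13.97 CPM in vein and 322 and 292 CPM in non-vein libraries.

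Markers of other cell types were present too. Skeletal muscle markers took 0.368% and 0.952% of counts in vein and 0.102% and 0.264% in non-vein libraries. Of 12 tested 1 was called, ckma, which rose, where 4.11% of all genes tested were called higher. The muscle list gave 9 calls without vein library 1, 8 without non-vein library 2 or with the replicate block, and 0 without either of the others; DESeq2 called 10, all higher, and limma-voom 3. ckma was not called in 3 of 14 alternatives. The matched erythroid markers took 0.184% and 0.285% in vein and 0.164% and 0.162% in non-vein libraries, with 2 of 13 higher, tspo and blvrb, and 4 called without non-vein library 2 but 1 without any of the others; blvrb was not called in 5 of 14 alternatives. DESeq2 called 4 erythroid markers, all higher. That list lacks globin genes that matched no name, so its share is not the whole of red cell RNA: the globin gene HBE1 (ENSDARG00000087390), singled out after its values were seen, stood at 1964 and 3799 FPKM in vein and 791 and 1849 FPKM in non-vein libraries. Epidermal markers took at most 0.0731% of a library, with 1 of 14 called lower (7.33% over all genes tested), icn. Their median log2 was 1.33, with 12 of 14 above 0, but none had both vein libraries above both non-vein libraries. DESeq2 called 2 of them, 1 higher and 1 lower. Of the stroma and mural markers 2 of 14 rose, TAGLN (ENSDARG00000033466) and CXCL12, and NOTCH3 and RGS5 fell; NOTCH3 and itga2b each lost the call in several alternatives, among them the one without non-vein library 1. Thrombocyte markers gave 1 call higher, THBS1 (ENSDARG00000010785), and 2 lower of 8, NFE2 and itga2b. Their median log2 was -2.31, with 7 of 8 below 0. THBS1 lost its call without vein library 2, without non-vein library 1 and on log2(FPKM + 1) without a filter (highest adjusted p over the alternatives 0.0748, edgeR and limma). Of 4 mast cell and eosinophil markers srgn rose. The part of these cells in the C/ebp values was not tested.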
